A study of Homo sapiens with 6 samples.

Results

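NEAT1, MALAT1 and the mRNAs of 7 paraspeckle proteins (SFPQ, NONO, PSPC1, RBM14, TARDBP, HNRNPK and DAZAP1) are described here in human embryonic stem cells in which alpha satellite RNA, the transcript of the centromeric repeats, had been targeted. They are 9 of the 53719 rows of a table of read counts per gene, taken by gene symbol. The set was chosen on measured values of the same contrast, so what the 9 genes do between the groups is a description and carries no test. The cells were of H9, an established line of human embryonic stem cells, and grew in RSeT, a medium sold for holding such cells near the naive state of the early embryo. The knockdown group (libraries titled Sense3 a, b and c) had received a gapmer against alpha satellite RNA (ALR) and the control group (Control a, b and c) a control gapmer, in both cases for 48 h, with 3 libraries per group. A gapmer is a short antisense oligonucleotide whose DNA core lets RNase H cut the RNA it pairs with. All libraries are of the 1 cell line, and no label says whether the letters stand for separate cultures, so the spread between libraries may be technical. The table has a row per gene symbol and none for the repeat RNA itself, so its depletion was not analysed here.

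NEAT1 is the long noncoding RNA around which paraspeckles, bodies in the space between chromatin domains, are built. It is made as a short polyadenylated form and a long form that shares its start, and the long form is the scaffold of the body. The gene MALAT1 lies next to it and gives an abundant nuclear RNA found at nuclear speckles, where splicing factors are stored. Human embryonic stem cells are known as cells with few or no paraspeckles, which appear as the cells differentiate.

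MALAT1 and the long form of NEAT1 have no poly(A) tail. In both, RNase P cuts the transcript in front of a tRNA-like structure, and the end it leaves is held in a triple helix of U-rich stretches and an A-rich stretch. The stretch that carries these motifs is shown because it is the feature that MALAT1 and NEAT1 share in their letters and that the mRNAs of the 7 proteins lack. Capitals mark the U-rich motifs TTTCTTTT and TTTTGCTTTT and the A-rich motif AAAAAGCAAAA, written 5′ to 3′ as DNA letters from the GENCODE 29 transcripts (GRCh38, plus strand).
NEAT1 (NEAT1-202, chr11:65445443-65445540, exonic, the last 98 bases of the transcript): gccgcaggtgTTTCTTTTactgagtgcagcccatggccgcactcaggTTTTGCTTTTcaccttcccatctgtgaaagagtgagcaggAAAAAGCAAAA
MALAT1 (MALAT1-202, chr11:65506021-65506116, exonic, 96 bases with 353 annotated bases after them): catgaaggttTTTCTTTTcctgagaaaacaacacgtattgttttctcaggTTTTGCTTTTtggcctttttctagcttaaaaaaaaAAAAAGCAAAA
Searched in this order on the transcript strand, with at most 80 bases between one motif and the next, the motifs were found in 2 of 206694 annotated transcripts (0.000968%), those of NEAT1 and MALAT1. None of the motifs overlaps another in either stretch. A match of letters describes the annotated transcript and not what was cut or bound in these cells.

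The NEAT1 gene lies on chromosome 11 from 65422774 to 65445540 (GRCh38) and MALAT1 from 65497688 to 65506516, both on the plus strand. All of NEAT1's 22.8 kb and MALAT1's 8.83 kb are annotated as exon. A count for NEAT1 adds reads of the short and the long form, so the forms cannot be told apart here. TALAM1, an antisense RNA of MALAT1, has no row in the table. The counting's strand setting is not given in the sources used here, so reads of MALAT1 and of its antisense partner cannot be told apart. Whether poly(A)+ RNA was selected is also not given. These are bulk libraries, in which fewer cells with an RNA and less of it per cell cannot be told apart.

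The libraries held 25087629 to 36576752 counts. Among them, the knockdown library a stood apart, with 29678 rows that had a count against 25898 to 26788 in the other libraries, and with a 28S ribosomal RNA row at 82.0 CPM (counts scaled to a common library total). In the other knockdown libraries that row was at 8.05 (b) and 3.36 (c), and in the controls at 1.05 to 2.58. Of the pluripotency markers, POU5F1 (87.7 to 152 CPM), NANOG (175 to 204) and LIN28A (1526 to 1888) were present in each library, and SOX2 was listed at 0 in all 6. The naive markers KLF17 (1 to 10 counts per library) and DPPA5 (0.808 to 1.23 CPM) were near 0, while DPPA3 (18.1 to 21.9 CPM), KLF4 (16.5 to 19.1), KLF5 (4.862 to 5.995), SUSD2 (2.35 to 3.03) and DNMT3L (1.35 to 2.99) had counts in each library. Of the markers of primed cells, SFRP2 was at 71.8 to 84.3 CPM, ZIC2 at 9.46 to 13.4 and DUSP6 at 8.56 to 10.9, and THY1 was listed at 0. The markers do not settle the state, and the cells are called here by their line and medium. The blood marker PTPRC had 40 counts in the knockdown library a and 1 to 5 in the others. Of the trophectoderm markers, CDX2 had at most 3 counts per library, GATA3 7 to 22, KRT7 6 to 19 and TFAP2A 3 to 22. Of the fibroblast markers, COL1A1 was at 18.8 to 24.8 CPM, while POSTN had 16 to 38 counts and COL3A1 0 to 9.

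NEAT1 was lower in the knockdown libraries, at about a 2.02-fold lower fitted level, and MALAT1 was 1.3-fold lower, while the mRNAs of the measured paraspeckle proteins had log2 fold changes between -0.07 and 0.14. NEAT1 stood at 417.2 CPM in the knockdown library a, 351.6 in b and 858.0 in c. In the controls it stood at 1355 (a), 878.5 (b) and 1059 (c). The groups do not overlap, but the knockdown library c lies next to the control b. Scaled by library total alone, NEAT1 took 0.0865% of the counts in the former and 0.0871% in the latter.

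The NEAT1 group means were 542.3 ± 275.4 CPM in the knockdown and 1098 ± 240.8 in the controls (SD, n = 3 each). The fitted log2 fold change, knockdown over control, was -1.02 ± 0.265 (SE), and 0.208% of the 19721 genes with enough counts for the fit had a lower one. Library c of the knockdown pulls that value towards 0. Without it the log2 fold change was -1.53 ± 0.151, and without the knockdown library a, the one with more rows and more 28S rRNA, it was -0.861 ± 0.271. Among the 8 members in the fit NEAT1 varied most, with a coefficient of variation of 46.6% over the 6 libraries.

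MALAT1 stood at 2664, 2583 and 3226 CPM in the knockdown libraries a, b and c. The controls a, b and c held 3618, 3747 and 3645 CPM. Every knockdown library was below every control, and the controls lay close together (3670 ± 68.04, SD, n = 3) while the knockdown libraries spread more (2824 ± 350.4). The log2 fold change was -0.38 ± 0.085, and 4.96% of genes in the fit had a lower one. Without the knockdown library a it was -0.338 ± 0.0988, and without the knockdown library c -0.504 ± 0.0465.

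In the knockdown both RNAs were lowest in library b, then a, and highest in c. The controls did not share an order, with NEAT1 lowest in b and MALAT1 lowest in a. NEAT1 counts per 100 MALAT1 counts were 15.7, 13.6 and 26.6 in the knockdown libraries and 37.5, 23.4 and 29.1 in the controls, so on this ratio the groups overlap. Against the summed counts of SFPQ, NONO and PSPC1, the proteins of the family with a DBHS core that bind NEAT1, the groups came close without overlap: 30.8, 23.9 and 63.1 NEAT1 counts per 100 in the knockdown and 99.8, 64.9 and 77.2 in the controls. MALAT1 counts per 100 counts of the same mRNAs were 196.5, 175.3 and 237.1 against 266.3, 276.7 and 265.8.

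**Figure D1:**
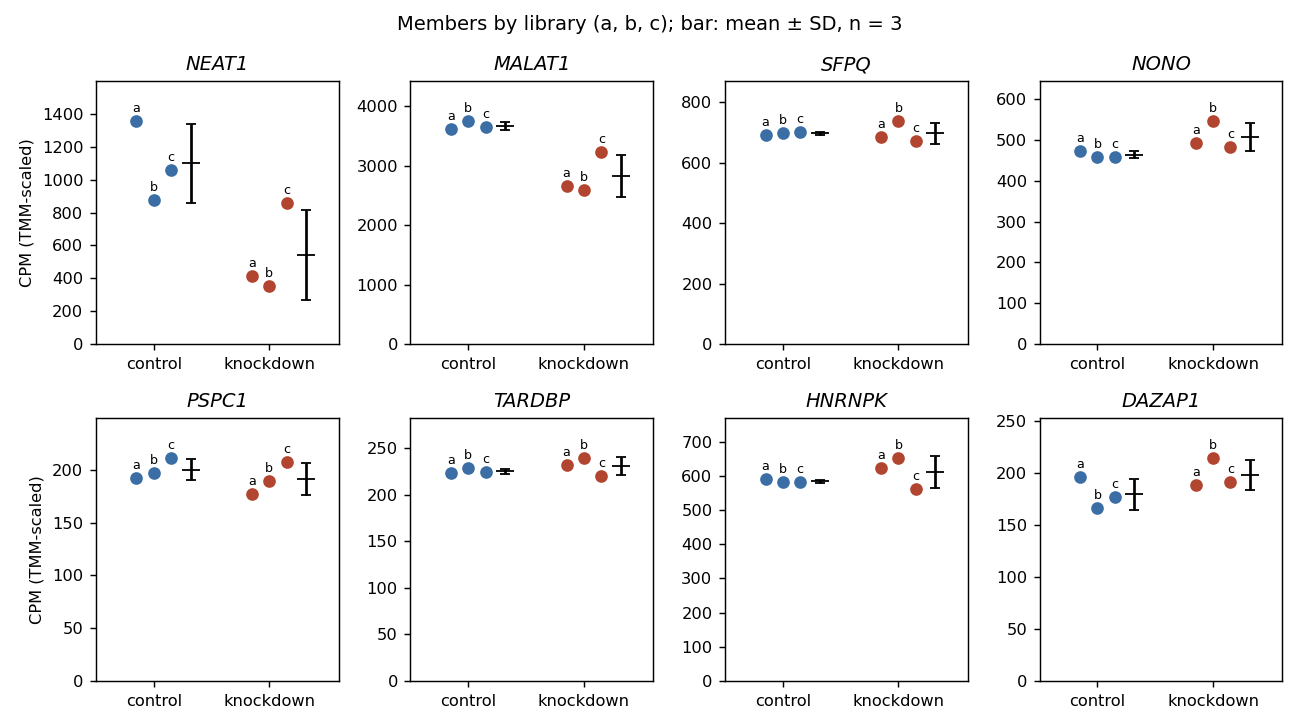
TMM-scaled CPM of each member in the fit (vertical axes from 0, each panel with its own scale) in the control (blue) and knockdown (red) libraries, with letters for libraries and bars for mean ± SD (n = 3). NEAT1 and MALAT1 are lower in all 3 knockdown libraries, with the knockdown library c nearest to the controls, and the protein mRNAs lie at like levels in both groups.

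Of the 8 members in the fit, 0 passed an adjusted p of 0.05 in edgeR's quasi-likelihood test, beside 0.786% of all genes in the fit (155 of 19721, of which 27 were higher and 128 lower). Scaled by library size alone 52 of 152 calls were higher, and by upper quartile 45 of 157. MALAT1 passed with DESeq2, which called 536 of the 19721 genes, and with limma-voom, which called 174. NEAT1 passed with neither. In 2 members, NEAT1 and MALAT1, all knockdown libraries lay below all controls, beside 9.36% of genes, and in 1 member, NONO, all lay above, beside 9.55%. The choice of the members used this contrast, so nothing is read from these counts. The remaining 5 overlapped between the groups.

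SFPQ, NONO and PSPC1 form the DBHS family, whose dimers coat NEAT1, and SFPQ and NONO are needed for the long form to be kept and for the body to form. SFPQ was at 684.8, 738.0 and 671.5 CPM in the knockdown and 692.9, 698.1 and 701.1 in the controls, with the controls inside the knockdown range and a log2 fold change of 0.00156 ± 0.0656. NONO was at 493.1, 545.3 and 482.1 CPM against 472.9, 458.6 and 458.5. Its lowest knockdown library lay just above its highest control, and the log2 fold change was 0.13 ± 0.0686.

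PSPC1, the third of the family, is found in paraspeckles but is not needed for their formation. Its levels were 177.5, 189.8 and 207.2 CPM in the knockdown and 192.5, 197.3 and 211.5 in the controls, which overlap, with a log2 fold change of -0.07 ± 0.073. SFPQ lies on chromosome 1 (35176378 to 35193148), NONO on X (71283192 to 71301168) and PSPC1 on chromosome 13 (19674752 to 19783019). In RefSeq, PSPC1 overlaps the gene MPHOSPH8, HNRNPK the gene RMI1 and TARDBP the gene MASP2. Reads from such an overlap could count for either gene, for both or for neither, since their handling is not given.

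HNRNPK and TARDBP act on the choice between the NEAT1 forms. HNRNPK, an RNA-binding protein of the hnRNP group, favours the long form by hindering cleavage factor Im at the early poly(A) site. HNRNPK was at 622.3, 652.8 and 561.3 CPM in the knockdown and 589.9, 583.2 and 581.4 in the controls. The knockdown range encloses the controls, and the log2 fold change was 0.07 ± 0.0711. TARDBP encodes TDP-43, which binds NEAT1 and favours the short form in pluripotent cells. TARDBP was at 231.7, 239.8 and 220.4 CPM against 223.3, 228.7 and 224.9, again with the controls inside the knockdown range, and the log2 fold change was 0.03 ± 0.0624.

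DAZAP1 and RBM14 are proteins needed for intact paraspeckles, RBM14 through its prion-like domain. DAZAP1 was at 188.2, 214.4 and 191.4 CPM in the knockdown and 195.7, 166.5 and 176.4 in the controls. The control a lies inside the knockdown range, and the log2 fold change was 0.14 ± 0.078. RBM14 had 2 counts in the control c and 0 in the other libraries, where 3 counts, the limit that a count of 0 allows, come to 0.089 to 0.12 CPM. Its gene (chromosome 11, 66616582 to 66627347) is overlapped on the same strand by the readthrough gene RBM14-RBM4, whose row was also at 0, so the row was left out of the fit and says nothing of whether RBM14 is expressed.

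Over the 6 protein mRNAs in the fit, the log2 fold changes ran from -0.07 to 0.14 with a median of 0.05, beside 0.02 over all genes in the fit, and 5 of 6 were above 0. Summed over the 7 proteins, the level was 2437 ± 128 CPM in the knockdown and 2351 ± 17.7 in the controls. For 4 of the 6 (SFPQ, HNRNPK, TARDBP and PSPC1) the size of the log2 fold change was smaller than its SE. Rows of processed copies of these genes were small beside them. The 5 copies of HNRNPK held 1.99% as many counts as HNRNPK, those of PSPC1 2.49%, and those of SFPQ, NONO and TARDBP at most 0.0653%.

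Levels can be set between genes only per length. Per kb of annotated exon, MALAT1 had the highest level of the members, at 320 CPM per kb in the knockdown and 416 in the controls. HNRNPK followed with 120 and 114 CPM per kb, then NONO with 95.8 and 87.6 and SFPQ with 94.0 and 93.9. NONO and SFPQ overlapped in the knockdown libraries and not in the controls. NEAT1, which ranked 75 of all genes by CPM alone, came to 23.8 ± 12.1 CPM per kb in the knockdown and 48.2 ± 10.6 in the controls. In the controls it overlapped PSPC1 (41.6) and lay just above TARDBP (37.2), and in the knockdown its libraries overlapped those of PSPC1 (39.8), TARDBP (38.0) and DAZAP1 (21.5, beside 19.5 in the controls). The exon length joins all annotated exons of a gene. For NEAT1 it holds the long form, so where reads come from the short form this scale understates the level. It likewise understates an mRNA that carries only some of its gene's annotated exons, so the order of genes on this scale is approximate.

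**Figure D2:**
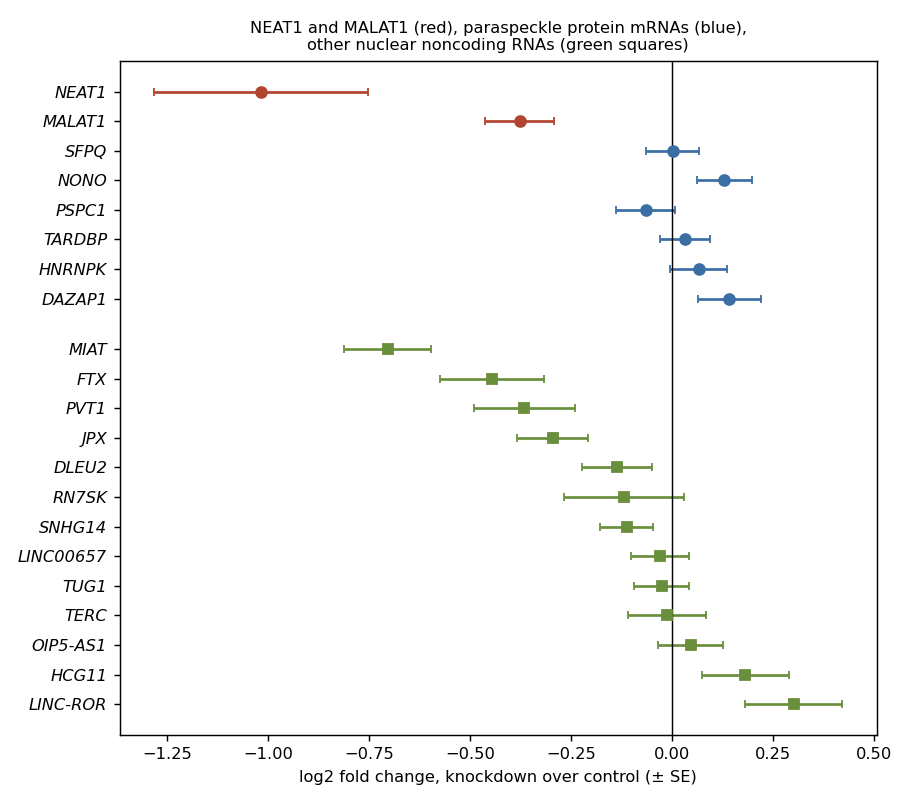
Fitted log2 fold change, knockdown over control, with its SE, for NEAT1 and MALAT1 (red), the 6 protein mRNAs in the fit (blue) and 13 other nuclear noncoding RNAs (green squares). NEAT1 lies at -1.02 and MALAT1 at -0.38, the protein mRNAs between -0.07 and 0.14, and the noncoding RNAs from MIAT at -0.70 to LINC-ROR at 0.30.

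The other nuclear long noncoding RNAs were taken from a list of 26 symbols, some of them second names of an RNA already listed. Of these symbols 17 had a row and 13 enough counts. MIAT, a nuclear RNA that forms its own bodies, fell on the log2 scale by 0.70 ± 0.108 (edgeR adjusted p = 0.0113, lower in 3 of 3 libraries), from 39.8, 37.8 and 36.2 CPM in the controls to 20.8, 21.0 and 28.2. Its call was lost without the control a (adjusted p = 0.115) or the control b (0.0871). It was the 1 RNA of the 13 that passed. The list's median log2 fold change was -0.11, beside 0.02 over all genes, with 10 below 0.

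FTX and JPX, noncoding RNAs of the X inactivation centre, and PVT1 were named after their values were seen. On the log2 scale FTX was at -0.45 ± 0.129 (edgeR adjusted p = 0.145), JPX at -0.30 ± 0.0874 (0.154) and PVT1 at -0.37 ± 0.125 (0.216), so that none passed. All 3 passed when the knockdown library c was left out and without the low-count filter, JPX also with DESeq2 and FTX also with the replicate block. Over all genes these settings called, in this order, 1309, 1064, 536 and 388, beside 155 in the fit of all libraries. Over the 13, DESeq2 called 2 and limma-voom 1. As in NEAT1 and MALAT1, library c was the highest knockdown library for MIAT, FTX, JPX and PVT1. The most abundant of the list were SNHG14 (-0.11 ± 0.0663), RN7SK (-0.12 ± 0.149), the RNA that holds P-TEFb inactive, and FTX. Of the 296 lincRNAs of GENCODE 29 in the fit, 3 passed, all lower (MIAT, AC138035.2 and AC135776.1), and the median was 0.03. Over all genes in the fit 0.786% passed, 128 of the 155 lower, so nothing is read from this count.

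A further 31 paraspeckle proteins were listed, of which 28 were in the fit. By edgeR 0 of the 28 passed, with 2 higher and 2 lower at an unadjusted p under 0.05. Over all genes in the fit 14.2% were under that p, 6.69% higher and 7.56% lower, to be read beside this count and those of the lists that follow. DESeq2 called 1, FIGN, and limma-voom 0. The median log2 fold change was 0.02, as over all genes. Among the most abundant were HNRNPH1 (-0.04 ± 0.0619) and MATR3 (0.03 ± 0.0679). The level of CPSF6, a subunit of cleavage factor Im, was 258.6, 265.5 and 267.4 CPM in the knockdown and 285.0, 296.6 and 301.0 in the controls (-0.16 ± 0.0613 on the log2 scale, edgeR adjusted p = 0.276). FIGN (-0.28 ± 0.0742, edgeR adjusted p = 0.108), AHDC1 (0.27 ± 0.0843, 0.174) and CIRBP (0.19 ± 0.0754, 0.281) were the other genes under an unadjusted 0.05. These genes were named after their values were seen. FIGN alone passed when the knockdown library c was left out (-0.381), a setting that called 1309 genes in all.

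The nuclear speckle, where MALAT1 is found, was covered by 27 proteins, 26 of them in the fit. EdgeR called 0 of 26, with 4 lower and 0 higher at an unadjusted p under 0.05 (7.56% and 6.69% of all genes), DESeq2 called 1 (CCNL1) and limma-voom 0. The median was -0.01. All knockdown libraries lay below all controls in 9 of the 26, beside 9.36% of all genes, and above them in 0. The 4 were CLK1, a kinase of SR proteins (-0.25 ± 0.0683), the cyclins CCNL1 (-0.24 ± 0.0691) and CCNL2 (-0.16 ± 0.0647), and the splicing protein PNN (-0.14 ± 0.0621), named after their values were seen. CLK1 was at 31.9, 32.1 and 31.6 CPM in the knockdown and 39.3, 38.6 and 36.0 in the controls. The most abundant were SRRM2 (0.05 ± 0.0744) and SON (0.06 ± 0.0741), the scaffold proteins of the speckle, and SF3B1 (-0.01 ± 0.0695).

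A list of RNase P components and other factors of RNA processing and turnover gave 16 of 17 genes in the fit. EdgeR called 0 of the 16, as did DESeq2 and limma-voom, and 1 was under an unadjusted p of 0.05 (POP7, 0.18 ± 0.0804, named after its value was seen). RPPH1, the RNA of RNase P, was at 334.3, 400.0 and 445.3 CPM in the knockdown and 433.0, 328.5 and 321.5 in the controls, which overlap (0.12 ± 0.122). DROSHA was at -0.03 ± 0.0606 and its partner DGCR8 at -0.09 ± 0.0721. The list's median was -0.02.

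Known transcription regulators of NEAT1 gave 6 of 6 genes in the fit and 0 calls by edgeR, DESeq2 or limma-voom, with 0 under an unadjusted p of 0.05. Among the most abundant, CARM1 had a log2 fold change of 0.08 ± 0.0666 and ATF2 of -0.13 ± 0.0711. Around NEAT1 and MALAT1 on chromosome 11, 9 neighbours were in the fit, with 0 calls by edgeR, DESeq2 or limma-voom and a median of 0.15. The list of 11 symbols also held TALAM1, which has no row, and a second name of a listed gene. At an unadjusted p under 0.05, 2 were higher, among them MAP3K11 (0.27 ± 0.1), and 0 lower. FRMD8 was at 0.10 ± 0.0899. The log2 fold change was above 0 in 7 of the 9 neighbours, beside 10739 of all 19721 genes in the fit. It was below 0 in NEAT1 and MALAT1, which lie between them. Some neighbours had few counts, and the least counted held 1 to 14 per library, with an SE of 0.826. A shared effect at the locus was not tested.

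**Figure D3:**
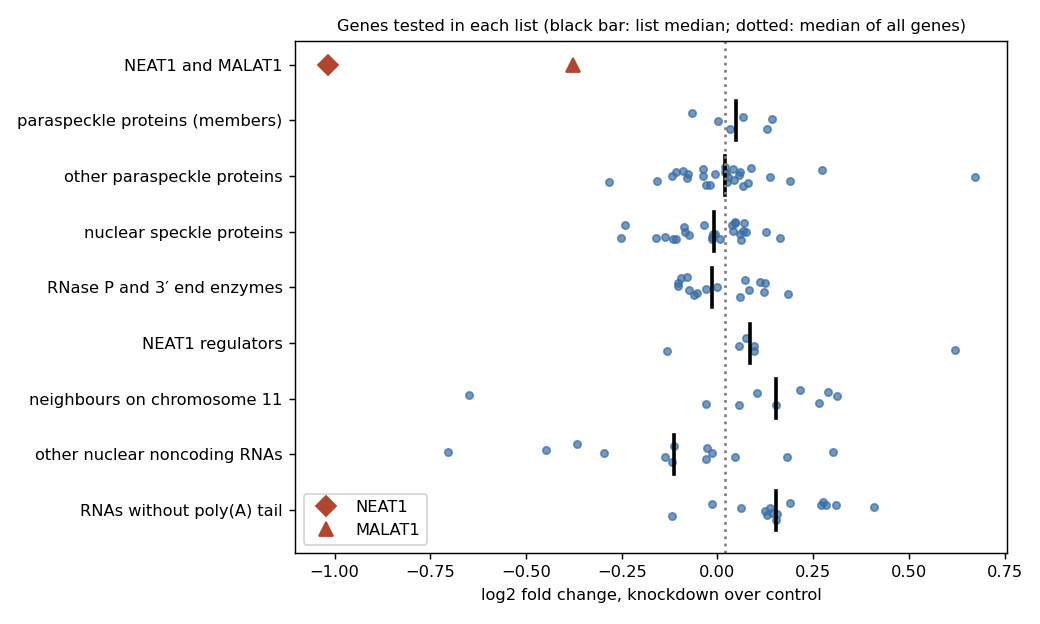
Log2 fold change, knockdown over control, of each tested gene in the lists (blue points, 1 row per list, spread vertically for sight only), with the list median (black bar), the median of all genes (dotted) and NEAT1 and MALAT1 on top (red). NEAT1 lies below every listed gene, and MIAT and FTX are the noncoding RNAs below MALAT1.

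How RNAs without a poly(A) tail were captured bears on MALAT1 and the long NEAT1 form. The same contrast was therefore read in 21 other such RNAs, mainly replication-dependent histone mRNAs and small nuclear and cytoplasmic RNAs. They were listed as 33 symbols, since each histone gene was entered under its older and its newer name. All 21 had a row, and 15 were in the fit. EdgeR called 0 of the 15, DESeq2 2 and limma-voom 0. Without the knockdown library c edgeR called 4, all higher and all linker histone mRNAs (HIST1H1B, HIST1H1C, HIST1H1D and HIST1H1E, named after their values were seen). It called 1 without the control a and 5 without the low-count filter. Over all genes these settings called, in this order, 1309 of 20456, 26 of 20413 and 1064 of 32300. At an unadjusted p under 0.05, 6 were higher and 0 lower (6.69% and 7.56% of all genes), and the median was 0.15. RN7SL2, the RNA of the signal recognition particle, was at 2071, 2590 and 2428 CPM in the knockdown and 2433, 1487 and 1423 in the controls (0.41 ± 0.168). The list's summed level was 5191, 6021 and 6007 CPM in the knockdown and 6224, 4862 and 4135 in the controls. The control a held the highest sum and the other controls the lowest, so the groups overlap. The part of tail selection in the NEAT1 and MALAT1 values was not tested.

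Over the 6 libraries, log2 CPM of NEAT1 and MALAT1 had a Pearson correlation of 0.938, a description in which the points share library, depth and group. Among 15140 genes with a mean count of at least 50, those most like NEAT1 were ARID1B (0.9996), a subunit of the BAF chromatin remodeller, FGF13 (0.998), GTDC1 (0.9975), CACHD1 (0.997) and EFNA5 (0.997). ARID1B had a log2 fold change of -0.34 ± 0.0969 and EFNA5 of -0.62 ± 0.153. Those most like MALAT1 were MAP4K5 (0.997), JMJD1C (0.997), AEBP2 (0.995), CD46 (0.995) and AUH (0.995). With correlations of 0.963 and 0.983, FTX and MIAT were also close to MALAT1. Of the protein mRNAs, PSPC1 had a positive correlation with MALAT1 (0.654), and the other 5 in the fit negative ones, from -0.344 (SFPQ) to -0.886 (NONO).

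The genes that followed NEAT1 across the libraries were long. Of the 15140 genes, 445 had a correlation of at least 0.95 with NEAT1. The median gene span of those with an annotated span was 275 kb, beside 38.9 kb over all, and 87.0% spanned 100 kb or more, beside 24.2%. For MALAT1 there were 268 such genes with a median span of 130 kb, 67.8% of them at or over 100 kb. NEAT1 and MALAT1 themselves span 22.8 kb and 8.83 kb and have no long introns.

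Across all matched genes in the fit (80.8%), the median log2 fold change was lower in longer genes, from 0.07 in 1032 genes of up to 3 kb to -0.09 in 825 genes over 300 kb. In the span bin that holds NEAT1, 10 to 30 kb, the median was 0.04, and in that of MALAT1, 3 to 10 kb, it was 0.08. With this trend removed in the fit, a setting added after the data were seen, the log2 fold change was -1.06 ± 0.232 for NEAT1 and -0.44 ± 0.0998 for MALAT1.

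**Figure D4:**
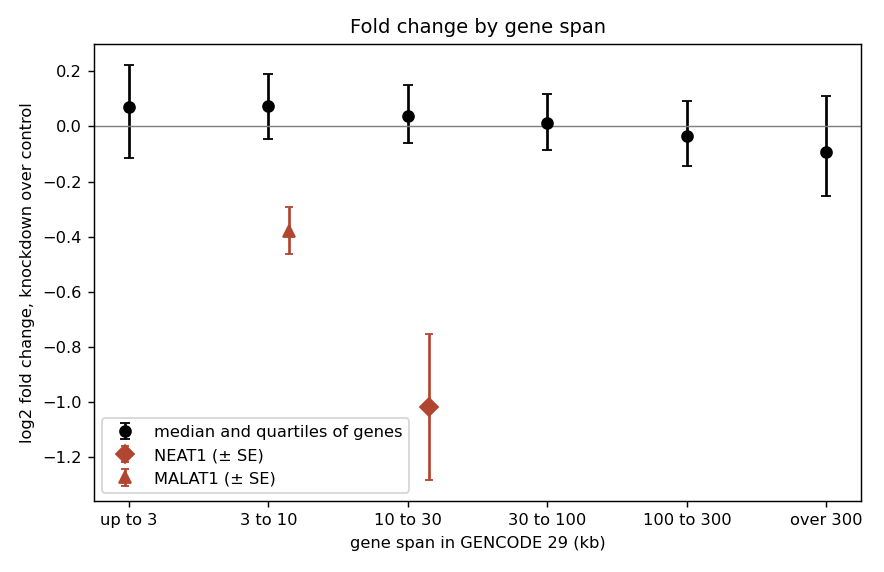
Median and quartiles of the log2 fold change, knockdown over control, of genes by annotated gene span in kb (black), with NEAT1 (red diamond) and MALAT1 (red triangle) and their SE placed at their own span. The medians go from 0.07 in the shortest genes to -0.09 in the longest, and both RNAs lie below the quartiles of genes of like span.

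The values of NEAT1 and MALAT1 were recomputed under other scalings, tests and filters and without each library. NEAT1 stayed between -1.53 and -0.785 on the log2 scale over 17 such settings and MALAT1 between -0.504 and -0.319. The largest and the smallest size came, for both RNAs, from leaving out the knockdown libraries c and b. NONO stayed above 0 (0.07 to 0.16) and PSPC1 below 0 (-0.15 to -0.02) in the same 17. SFPQ took both signs, between -0.05 and 0.03, as did TARDBP, between -0.02 and 0.06.

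**Figure D5:**
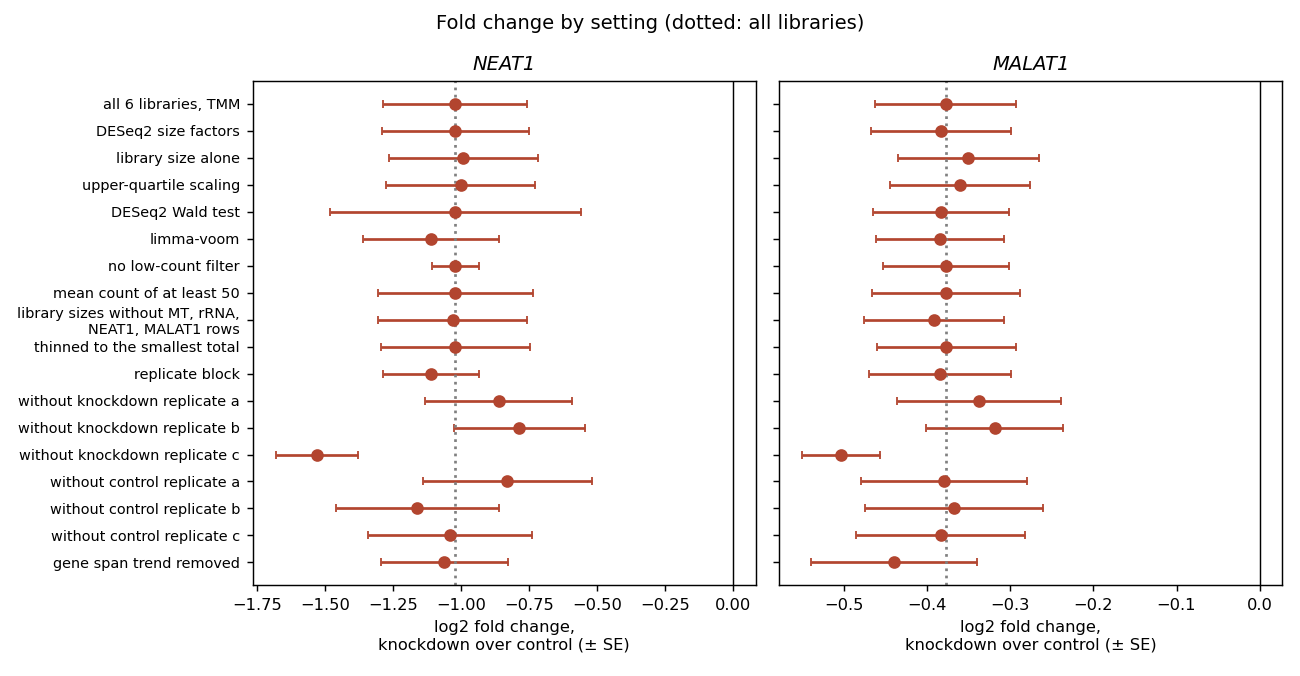
Log2 fold change, knockdown over control, with its SE, of NEAT1 and MALAT1 (horizontal axes, each on its own scale) with all libraries (top row, dotted line) and under each alternative setting. Both RNAs lie below 0 in every setting shown, and leaving out the knockdown library c moves both furthest from 0.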

How the data were processed

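RNA was profiled in H9 cells after a control or an alpha satellite gapmer (3 libraries each). The kit was the directional NEBNext Ultra II, per the labels' protocols. The submitters' processing notes name Trimmomatic 0.39, STAR 2.7.8a, featureCounts, Subread 2.14.2 and hg38. The authors deposited raw counts per gene symbol. Their strand setting and their handling of reads in several genes are not given in the sources used here.

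The counts were tested with edgeR 4.0.16 (R 4.3.3) using filterByExpr, TMM and the two-sided quasi-likelihood test, with group alone in the model. Benjamini-Hochberg adjustment ran over the 19721 genes kept (99.9% of counts), with a threshold of 0.05. The fit was tested on simulated data. CPM are TMM-scaled, and "fitted" fold changes are edgeR's. Alternatives used DESeq2 1.42.0, limma 3.58.1, other scalings and filters, a replicate block, thinned counts and each library left out. Positions, spans and sequences come from GENCODE 29 (GRCh38), with RefSeq synonyms. By symbol or synonym 15926 genes in the fit (80.8%) were matched.

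The members and lists were chosen with earlier results of these data known. Genes were named by rule: all members, each list's genes past the threshold and its 3 most abundant, and the 5 genes most correlated with NEAT1 and with MALAT1. Others are marked as chosen after their values were seen. Some genes that the rule names are not reported here. P-values set the difference between the groups against the spread between these libraries, which may be technical. No column of the table was left unused.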

Additional observations from a re-analysis of the deposited data

How the results depend on the processing

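Of all genes in the fit, 155 passed the threshold. The count was 536 with DESeq2's Wald test, 1064 without the low-count filter, 388 with the replicate block, 236 with the trend over gene span removed (a setting chosen after seeing the data), and 26 to 1309 with 1 library left out, the highest without the knockdown replicate c and the lowest without the control replicate a (each of the 6 moved it by over 1.5 times). With the scaling by library size alone, 52 of 152 calls were higher, and 45 of 157 by upper quartile, against 27 of 155. Of the 28 other paraspeckle proteins, 0 passed. The count was 1 (FIGN) with DESeq2's Wald test, without the low-count filter and with the replicate block, and 0 to 1 with 1 library left out. NEAT1 ranged from -1.53 to -0.785 and MALAT1 from -0.504 to -0.319 with 1 library left out, and both had the same sign in all 17 alternatives. NEAT1 was called in 4 of the 17 and MALAT1 in 6, given as counts and not as tests. The settings with such a call passed 174 to 1309 genes in all. With the replicate block the log2 fold changes were -1.11 and -0.385. The letters were not taken as pairs, since no label says that they mark a shared culture. Deviations of libraries with the same letter had correlations of -0.0211 (a), 0.157 (b) and 0.0051 (c). Between different letters they ran from -0.107 to 0.0831. These values do not settle whether the libraries are paired. MIAT passed in 15 of 17. Its highest edgeR adjusted p was 0.115, without the control a. The lowest, 1.2e-11, came without the low-count filter, where 1064 genes passed. In that setting the SE of NEAT1 was 0.0865, against 0.265 with the filter, so that value is not read as strength. For all of these the cause was not tested. Rows of a few counts, such as RBM14, were not in the fit.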

Other observations

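Several genes of the lists were at 0 counts in all 6 libraries. Among them were HNRNPA1 and RBM12 of the paraspeckle list, SRSF2 of the nuclear speckle list and the pluripotency gene SOX2. They were found while the lists were read and were named after their values were seen. SOX2 lies inside SOX2-OT on the same strand, whose row held 9866 counts over the 6 libraries, and RBM14 inside RBM14-RBM4, whose row held 0. The part of the overlaps in these zeros was not tested, and a 0 in such a row is not read here as absence of the RNA.

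POU5F1, a core pluripotency factor, was at 120.2, 152.1 and 126.6 CPM in the knockdown libraries and 114.0, 87.7 and 97.4 in the controls, or 0.42 ± 0.105 on the log2 scale (edgeR adjusted p = 0.0945, higher in 3 of 3 libraries), named after its value was seen. It did not pass the threshold in edgeR with all libraries. It passed with DESeq2, without the knockdown library c and without the low-count filter, settings that called 536, 1309 and 1064 genes in all.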
